A study of Homo sapiens with 8 samples.

Results

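Cells carrying the barcodes SBO09 and SBO10 were set against cells carrying SBO07, SBO08 and SBO11, all from HMLE, an immortalised human mammary epithelial line. The members were found by a rule: within each of mRNA libraries 3 and 4, cells that held 1000 or more genes and no more than 15% mitochondrial UMIs (unique molecular identifiers, 1 per captured transcript) were assigned to a barcode from the counts of SBO07 to SBO12. The rule gave 1174 cells in SBO09 and SBO10 (691 and 483) and 2220 cells in SBO07, SBO08 and SBO11 (832, 863 and 525). These 3394 cells are part of 11072 cells with 1 barcode and 22147 kept cells in the whole series. The division of these cultures into 2 and 3 was chosen by their measured levels of interferon-stimulated genes such as IFI27, BST2 and IFI6. All differences along that division are therefore given as descriptions, with no test.

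The study used droplet single-cell sequencing from the 5′ end of transcripts to follow the epithelial-to-mesenchymal transition set off by TGF-β, with and without pyridostatin, a small molecule that binds G-quadruplex structures in nucleic acids. Each culture was labelled with its own short barcoded oligonucleotide, and cultures were then mixed. All 5 cultures share the HMLE line and the enzymatic harvest in 0.04% bovine serum albumin, and they come from 1 pool loaded on 2 channels, libraries 3 and 4. The labels tie no barcode to TGF-β, pyridostatin or a time, so any treatment or time that distinguishes SBO09 and SBO10 from SBO07, SBO08 and SBO11 is not known here. The labels name no genotype that differs between them. The 2 libraries are repeat loads of the same mixed cells, so their spread is technical, and no culture of any group has a known replicate.

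Interferons are secreted proteins that warn cells of viral infection. Type I and type III interferons bind different receptors but share a pathway: the kinases JAK1 and TYK2 phosphorylate STAT proteins, which join IRF9 and bind interferon-stimulated response elements in promoters. The induced genes include antiviral effectors (MX1, IFIT1, RSAD2, OAS1), sensors of foreign nucleic acid (IFIH1, DDX58), parts of the pathway itself (IRF7, IRF9), its brake USP18, and the machinery that presents antigen on HLA class I. Epithelial cells make and answer type III interferons in particular. IFI27 and IFI6 encode small membrane proteins found at mitochondria and the endoplasmic reticulum, and BST2 encodes tetherin, which holds budding viruses at the cell surface.

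The median cell of each culture held similar material. Median UMIs per cell were 34214 in SBO09 and 32999 in SBO10, against 34603 in SBO07, 33463 in SBO08 and 33566 in SBO11. The median mitochondrial share was 1.65 and 1.68% in SBO09 and SBO10, and 1.51, 1.43 and 1.63% in SBO07, SBO08 and SBO11. Cell barcodes that occur in both libraries numbered 369, and 13 of them were assigned to the 5 cultures in both. Of 8 epithelial markers, 7 were above 10 CPM (a gene's UMIs per 1000000 UMIs of its culture) in all 5 cultures, as in epithelium. Of the leukocyte markers, 10 of 12 were below 1 CPM in all 5 cultures and CD3E was at 0, and of the endothelial markers 8 of 9 were below 1 CPM and PLVAP was at 0. CD74, which interferon can also raise in epithelium, was the leukocyte marker above 10 CPM in all 5. The summed leukocyte markers were 83.2 and 94.6 CPM in SBO09 and SBO10, against 144, 114 and 109 CPM in SBO07, SBO08 and SBO11, and the part of such cells in the result was not tested. Of 8 stromal fibroblast markers, 5 were below 1 CPM and 2 were above 10 CPM in all 5 cultures, and the 8 summed to 66.2 to 81.5 CPM.

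The identity of SBO11 is the weakest of the 5. The barcodes that name the cultures are shown because every value below depends on telling them apart. Capitals here mark the whole barcode as deposited.
SBO09: TTAGGTGTACACGTT
SBO10: GCATTGCGTCAGGCT
SBO07: CGAGGTACATCTTGT
SBO08: GCCAAGATCAGGTCC
SBO11: CTGGTCGAACTTCGT
Each differs from every other barcode of the study in at least 9 of its 15 bases. In 156 of the 525 cells assigned to SBO11 (29.7%), another barcode had more UMIs than SBO11, and in 139 of them it was SBO08. Such cells numbered 37 of 691 in SBO09, 20 of 483 in SBO10, 28 of 832 in SBO07 and 0 of 863 in SBO08. In SBO12, the sixth culture of the pool, they numbered 774 of 1227 (63.1%), and in 729 of them the higher barcode was SBO08. The order of the cultures, the values per cell and the counts of called genes are therefore given below both with these cells and without them. They are also given for another assignment, the top barcode rule, which takes the barcode with the most UMIs where it has at least 10 and at least 3 times the second. This rule gave SBO08 2962 cells in place of 863, SBO11 310 in place of 525 and SBO12 98 in place of 1227. Its SBO08 values thus come from a much larger set of cells.

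The promoters of IFI27, BST2 and IFI6, with that of ISG15, are shown because each holds letters that match the core of the interferon-stimulated response element. The sequences are the last 150 bases before the transcription start, 5′ to 3′ on the gene's strand, from RefSeq on GRCh38.p14, and GENCODE release 29 places the start of each of the 4 genes further upstream, for BST2 and IFI6 within the stretch shown. The motif was GAAA, then 2 bases of any kind, then GAAA, searched on both strands. Capitals mark each match that lies wholly within the 150 bases. A further IFI6 match begins 156 bases before the start, and its end opens the stretch in lower case. A match on the other strand reads TTTC at both ends, and matches that run together overlap.
IFI27, chr14:94110586-94110735, plus strand: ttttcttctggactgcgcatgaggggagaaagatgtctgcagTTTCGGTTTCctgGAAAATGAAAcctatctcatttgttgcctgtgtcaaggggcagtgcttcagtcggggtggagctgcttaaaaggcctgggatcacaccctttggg
BST2, chr19:17405631-17405780, minus strand: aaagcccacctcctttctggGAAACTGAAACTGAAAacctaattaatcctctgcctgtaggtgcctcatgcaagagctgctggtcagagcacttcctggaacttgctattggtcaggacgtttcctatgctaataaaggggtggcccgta
IFI6, chr1:27672193-27672342, minus strand: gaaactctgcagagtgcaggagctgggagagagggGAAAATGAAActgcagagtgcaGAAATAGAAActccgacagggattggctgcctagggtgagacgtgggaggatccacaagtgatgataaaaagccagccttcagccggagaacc
ISG15, chr1:1013347-1013496, plus strand: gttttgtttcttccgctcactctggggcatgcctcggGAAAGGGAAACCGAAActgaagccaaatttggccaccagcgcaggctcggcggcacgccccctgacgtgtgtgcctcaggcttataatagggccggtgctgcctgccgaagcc
In the 250 bases before the start, the motif occurred in 839 of 27305 promoters of the table (3.07%) and in 159 of the 6667 matched genes that averaged 10 CPM or more (2.39%). It occurred in 24 of 55 matched promoters (43.6%) among the genes lower in SBO09 and SBO10 by the rule given below. Of the interferon-stimulated list, it occurred in 19 of 34 matched promoters of genes lower in SBO09 and SBO10 and in 4 of 9 of those measured but not apart. Among lower genes outside that list it occurred in 5 of 21 (23.8%). The division was chosen on interferon-stimulated genes, so a high share among the lower genes could follow from that choice, and nothing is read from it. A match is a description of letters and does not show binding.

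IFI27, BST2 and IFI6 were lower in SBO09 and SBO10 than in SBO07, SBO08 and SBO11, by about 2.94 to 4.21 times between the medians of the 2 sides in CPM + 1. IFI27 (ENSG00000165949, chromosome 14, 94104836 to 94116698 in GRCh38) stood at 76.8 CPM in SBO09 (95% counting interval 73.4 to 80.4) and 96.9 CPM in SBO10 (92.2 to 102). It stood at 582 CPM in SBO07 (573 to 591), 367 in SBO08 (359.9 to 374) and 177 in SBO11 (171 to 183). SBO07 was highest, SBO11 lay closest to SBO10, and no interval of one side reached the other. By library, 3 then 4, IFI27 was 70.5 and 83.6 CPM in SBO09, 115 and 73.4 in SBO10, 589.7 and 576 in SBO07, 375 and 359 in SBO08, and 171 and 183 in SBO11. The 2 sides did not overlap in any load, while the loads of SBO09 and SBO10 overlapped each other. The difference in log2(CPM + 1), the median of SBO09 and SBO10 minus the median of SBO07, SBO08 and SBO11, was -2.08.

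BST2 (ENSG00000130303, chromosome 19, 17402939 to 17405648) stood at 15.5 and 18.3 CPM in SBO09 and SBO10, 73.3 in SBO07, 51.4 in SBO08 and 34.1 in SBO11. Its loads ran from 12.3 to 20.2 CPM on the low side and from 32.3 to 77.2 CPM on the high side, again with SBO09 and SBO10 overlapping each other. Its difference was -1.56. Under the top barcode rule, BST2 in SBO11 was 16.7 CPM and its loads overlapped those of the low side, so the call was lost. IFI27 in SBO11 was then 105 CPM, 1.41 times SBO10, and IFI27 and IFI6 kept their calls. IFI6 (ENSG00000126709, chromosome 1, 27666061 to 27672218) stood at 151 and 186 CPM in SBO09 and SBO10, against 929.7, 609.9 and 328 CPM in SBO07, SBO08 and SBO11, a difference of -1.86. For IFI6 both loads of SBO10 (186 and 185 CPM) lay above both loads of SBO09 (147 and 156 CPM). Intervals cover counting error only, and in summed counts fewer expressing cells and less RNA per cell cannot be told apart; values per cell are given further below.

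**Figure D1:**
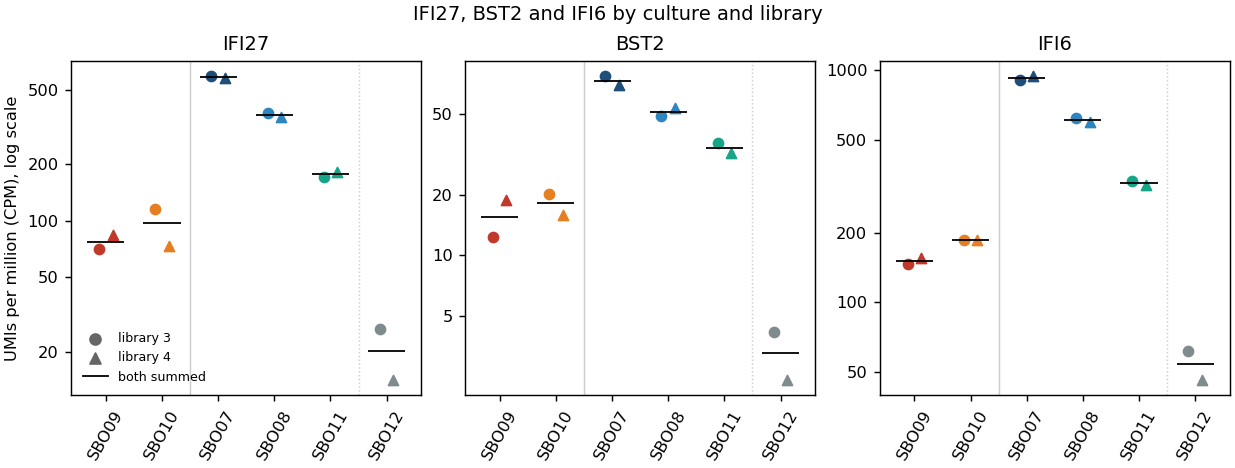
CPM on a log scale (vertical axis) of IFI27, BST2 and IFI6 in 6 cultures (horizontal axis), circles for library 3, triangles for library 4 and black lines for both summed. SBO09 and SBO10 lie below SBO07, SBO08 and SBO11 in each panel, and SBO12, from the same pool, lies lowest, at 20.3 CPM for IFI27.

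Across the transcriptome, more genes were called lower than higher in SBO09 and SBO10. A gene was called when its mean was at least 10 CPM, every load of SBO09 and SBO10 lay on one side of every load of SBO07, SBO08 and SBO11, and the nearest cultures were at least 1.2 times apart. Of 8210 genes above the minimum, 69 were lower in SBO09 and SBO10 (0.84%) and 3 were higher (0.0365%). Without overlap at any gap, 281 were lower (3.42%) and 108 were higher (1.32%). The division was chosen on interferon-stimulated genes, so these shares describe it and nothing is read from them. The median difference of all 8210 genes was -0.02. Across those genes, the log2(CPM + 1) profile of SBO09 had a Pearson r of 0.996 with SBO10, 0.995 with SBO11, 0.993 with SBO08 and 0.992 with SBO07, over genes that are not independent. By whole profile SBO11 was thus about as near to SBO09 as SBO10 was. The count of lower genes was 206 without SBO09, 104 without SBO10 and 141 without SBO11. The count of higher genes was 30 without SBO08 and 10 without library 3. With a culture left out, fewer loads have to lie apart and the rule is easier to pass. A higher count without a culture, here or below, is therefore not read as a result.

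Interferon-stimulated genes made up 38 of the 69 lower genes. Of 58 interferon-stimulated genes measured, 52 passed the minimum, 38 of these were lower in SBO09 and SBO10, 0 were higher, and 14 were not apart. Over all genes 0.84% were called lower. The division was chosen on interferon-stimulated genes, so the count of 38 describes it and is not a separate result. The median difference of the 52 was -0.90, beside -0.02 for all genes, and all 52 differences were below 0. The 20 genes with the widest gap among those averaging 20 CPM or more were RSAD2, IFI44L, MX1, IFITM1, OAS1, BST2, IFI27, OAS2, IFI6, XAF1, ISG15, IFI44, HERC5, HES4, IRF9, USP18, IFI35, IRF7, EPSTI1 and DDX60. All of them but HES4 are on 1 of the interferon lists.

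RSAD2, which encodes viperin, an enzyme that makes a chain-terminating nucleotide, had the widest gap. It stood at 8.03 and 5.97 CPM in SBO09 and SBO10, against 39.7, 30.7 and 26.3 CPM in SBO07, SBO08 and SBO11. In CPM, SBO11 kept more of the SBO07 level for RSAD2 than for IFI27, and its loads were far apart, at 16.8 and 36.3 CPM in libraries 3 and 4. In library 4, 1 cell held 82 of its 314 RSAD2 UMIs. The share of SBO11 cells with an RSAD2 UMI was 15.7 and 17.2% in the 2 loads. Over both, it was 16.4% in SBO11 against 32.1% in SBO07, and for IFI27 53.5 against 88.0%. CMPK2, a mitochondrial nucleotide kinase whose gene partly overlaps RSAD2 on the opposite strand, stood at 6.27 and 6.03, against 31.4, 23.2 and 16.2 CPM. IFI44L stood at 7.42 and 7.49, against 60.6, 34.9 and 19.2 CPM, the most negative difference of the list at -2.08, close to that of IFI27. Unlike IFI27, IFI44L was nearly equal in SBO09 and SBO10.

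The MX proteins are GTPases that block viral particles. MX1 stood at 83.4 and 90.5 CPM in SBO09 and SBO10, against 426, 302 and 176 CPM in SBO07, SBO08 and SBO11, a ratio of medians of 3.44. MX2 stood at 3.40 and 3.47, against 24.0, 14.8 and 10.1 CPM. Both genes followed the same order of cultures as IFI27, without overlap of the sides. ISG15, a ubiquitin-like modifier, stood at 199.5 and 201, against 550.2, 497 and 337 CPM. Its loads in SBO09 (198 and 201 CPM) and SBO10 (208 and 194 CPM) overlapped.

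The IFITM proteins hinder the fusion of viruses with membranes, and their 3 genes are near-identical in part, so the split of reads among them is uncertain. IFITM1 stood at 66.5 and 70.5 CPM in SBO09 and SBO10, against 299, 245 and 137. IFITM3 stood at 832 and 912, against 1723, 1437 and 1143 CPM, and its ratio of medians was smaller, 1.65 against 3.53. IFITM2 did not overlap between the sides but came within 1.2 times, at 99.2 and 94.7, against 130.1, 124 and 109 CPM.

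The IFIT proteins bind foreign RNA ends, and their genes differed among themselves. IFIT1 stood at 61.1 and 51.1 CPM in SBO09 and SBO10, against 222, 130.5 and 87.5 in SBO07, SBO08 and SBO11, and was called lower. IFIT3 was called lower too, at 60.6 and 54.5, against 181, 115 and 82.5 CPM. IFIT2 was not apart: SBO09 stood at 83.5, SBO10 at 60.6 and SBO11 at 87.8 CPM, and in library 4 SBO09 (87.1 CPM) lay above SBO11 (79.3 CPM). For IFIT1, IFIT2 and IFIT3, SBO09 thus lay above SBO10, whereas for IFI27 and IFI6 it lay below.

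The remaining members differed by degree. LY6E was nearly flat, at 606 and 569 CPM in SBO09 and SBO10, against 636, 608 and 641. LGALS3BP and SHISA5 were also not apart, with differences of -0.25 and -0.12. TRIM22 had a difference of -1.32 but its loads overlapped, so it was not called. Around the threshold of 1.2 times, HLA-F and TAPBP lay just inside, at 1.21 and 1.21 times, and IFIT5 and LGALS3BP just outside, at 1.18 and 1.17 times.

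The 5 cultures stood at graded levels of the list. Of the 52 genes, 49 were highest in SBO07, 46 stood in the order SBO07, SBO08, SBO11 and then both others, and 52 stood higher in SBO11 than in both SBO09 and SBO10. The median of the list, after each gene's mean over the 5 cultures was taken off, was 0.64 in SBO07, 0.38 in SBO08, 0.00 in SBO11, -0.53 in SBO10 and -0.52 in SBO09 on the log2 scale. SBO11 thus lay between the highest and the lowest cultures. SBO09 and SBO10 had no fixed order, with SBO09 above SBO10 in 22 of the 52 genes. The summed CPM of the 52 genes was 3730 in SBO09 and 3791 in SBO10, against 8895 in SBO07, 6983 in SBO08 and 5266 in SBO11. Without the cells in which another barcode was higher, 46 of the 52 genes stood in that order and 50 stood higher in SBO11 than in both low cultures. The SBO11 median was then -0.10 and its summed level 4771 CPM, beside 3648 in SBO09 and 3690 in SBO10. Under the top barcode rule, 48 stood in that order, 51 stood higher in SBO11 than in both, and the summed level of SBO11 was 4527 CPM, beside 3450 and 3499. SBO11 thus lay nearer to the low pair under both assignments, and 31 of 52 and 31 of 50 genes above the minimum were called lower, in place of 38 of 52.

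**Figure D2:**
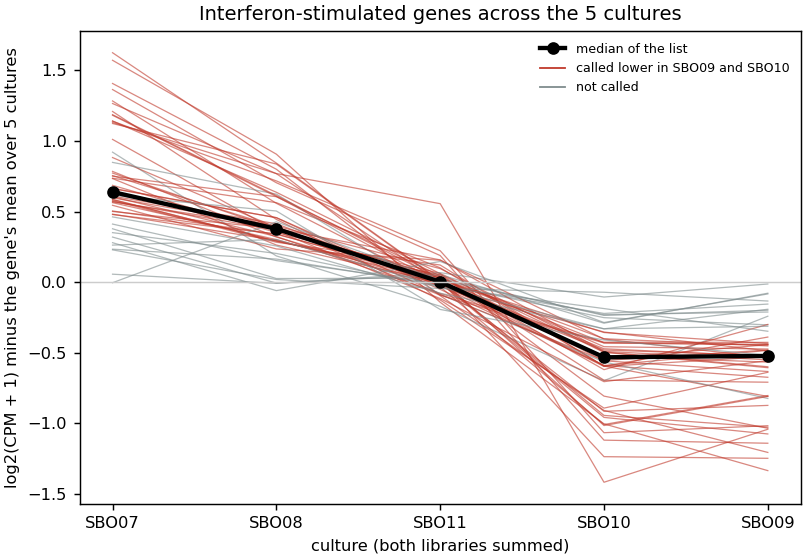
Each thin line is 1 of 52 interferon-stimulated genes across the 5 cultures (horizontal axis, both libraries summed), as log2(CPM + 1) minus the gene's mean over the cultures (vertical axis); red lines were called lower and the black line is the median. The median steps down from 0.64 in SBO07 to 0.00 in SBO11 and is level between SBO10 and SBO09, at -0.53 and -0.52.

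The order of the high cultures was examined pair by pair with the same rule. SBO07 lay above SBO08 in 275 genes (3.35%), 26 of them among the 52 interferon-stimulated genes, and SBO08 lay above SBO07 in 280 (3.41%), 1 of them on the list. SBO08 lay above SBO11 in 414 genes (5.04%), 38 of them on the list, and SBO11 lay above SBO08 in 402 (4.9%), 0 of them on the list. In both pairs similar numbers of genes thus lay in each direction, with the list on one side. Between the low cultures, SBO10 lay above SBO09 in 87 genes (1.06%), 1 of them on the list, and SBO09 lay above SBO10 in 394 genes (4.8%), 2 of them on the list. A rule over the 4 loads of a pair is easier to pass than one over 10 loads, so these counts are not set against the 69. Outside the list, SBO09 and SBO10 could lie far apart. NFKBIA, an inhibitor that NF-κB induces, stood at 160.0 CPM in SBO09 and 79.0 in SBO10, and KRT14, a basal keratin, at 864 and 560.1 CPM.

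Genes of the interferon pathway itself divided by role. Of 19 receptors and signal transducers above the minimum, 4 were lower in SBO09 and SBO10 and 0 were higher, with a median difference of -0.11 beside -0.02 for all genes, of which 0.84% were called lower. Under 14 alternatives of assignment, filter, scaling, depth, library or culture, 4 or 5 were lower. Among the 4 were IRF7, IRF9 and USP18, which are themselves interferon-inducible, and IRF7 is also on the list above. IRF9, the DNA-binding partner of STAT proteins, stood at 33.0 and 28.9 CPM in SBO09 and SBO10, against 76.1, 68.0 and 51.5. USP18, which removes ISG15 and restrains the type I receptor, stood at 12.5 and 11.6, against 41.1, 29.8 and 19.6 CPM. IRF7, a factor that amplifies interferon production, stood at 43.1 and 46.4, against 100.1, 87.0 and 70.4 CPM. All 3 kept the order SBO07, SBO08, SBO11 and then the low pair.

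Receptors and kinases were not apart. IFNAR1, a chain of the type I receptor, stood at 36.6 and 39.5 CPM in SBO09 and SBO10, against 40.7, 36.2 and 44.9. IFNLR1, the specific chain of the type III receptor, was under the minimum at 5.49 and 6.39, against 6.67, 7.13 and 7.01 CPM. JAK1 stood at 85.0 and 80.6, against 88.9, 86.7 and 89.4 CPM, within 1.2 times in every culture pair that crosses the division. STAT2 had a difference of -0.58 with overlapping loads, and IRF1, a target of type II interferon in particular, had SBO09 highest of all at 92.6 CPM and SBO10 lowest at 60.8 CPM.

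Of 14 sensors of nucleic acid and their partners above the minimum, 8 were lower in SBO09 and SBO10, 0 were higher and 6 were not apart, beside 0.84% lower over all genes. The median difference was -0.67, and 4 of the 8 (OAS1, OAS2, OAS3 and SAMHD1) are also on the interferon-stimulated list. The count was 5 (OAS1, OAS2, OAS3, OASL and SAMHD1) both without the cells in which another barcode was higher and under the top barcode rule, so DDX58 and IFIH1 lost their calls there. DDX58, which encodes RIG-I, a sensor of uncapped RNA, stood at 32.4 and 26.4 CPM in SBO09 and SBO10, against 64.9, 60.2 and 47.9. IFIH1, which encodes MDA5, a sensor of long double-stranded RNA, stood at 25.4 and 22.8, against 53.1, 47.6 and 32.4 CPM. OAS1, which makes the signal that activates RNase L, stood at 27.0 and 26.2, against 115, 77.0 and 50.1 CPM. MAVS, the adaptor downstream of RIG-I and MDA5, was not apart, with a difference of -0.10. TBK1, the kinase it engages, was not apart either, at 20.7 and 20.5, against 22.4, 18.5 and 20.6 CPM. CGAS and IFI16, sensors of DNA, were lower without overlap but came within 1.2 times, with differences of -0.24 and -0.89.

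Interferon transcripts themselves were rare and lay in few cells. All 7 ligands measured were under the minimum in the 5 cultures. IFNB1 had 0 UMIs in SBO09 and 0 in SBO10, 13 in 3 cells of SBO07, 84 in 3 cells of SBO08 and 1 in SBO11. A count of 0 allows up to 0.434% of cells with a UMI in SBO09 and 0.621% in SBO10, above the 0.361% seen in SBO07, so a difference in such cells was not detectable at this depth. IFNL1, a type III interferon, had 57 UMIs in SBO09 and 4 in SBO10, against 84 in SBO07, 200 in SBO08 and 33 in SBO11. Its cells with a UMI numbered 9, 2, 15, 11 and 6 in that order of cultures, so SBO09 was not set apart from SBO07, SBO08 and SBO11. IFNG, the type II interferon of lymphocytes, had 0 UMIs in all 5 cultures. CXCL10, a chemokine that interferon induces, was under the minimum too, with 15 and 10 UMIs in SBO09 and SBO10, against 356, 265 and 193 in SBO07, SBO08 and SBO11. In SBO11, 69 of the 193 lay in 1 cell, and 8 of 525 cells held any, against 8 of 691 in SBO09.

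Of 17 genes of antigen presentation on HLA class I above the minimum, 6 were lower in SBO09 and SBO10 and 0 were higher, with a median difference of -0.33. The loads of 14 did not overlap, lower in SBO09 and SBO10. Over all genes 0.84% were called lower and 3.42% were lower without overlap. The called number was 2 without the cells in which another barcode was higher (PSMB9 and TAPBP), 2 under the top barcode rule (HLA-B and TAPBP), 2 without library 3 and 10 without SBO11. Without SBO11, 141 of 8192 genes were lower. HLA-B stood at 282 and 327 CPM in SBO09 and SBO10, against 706, 660.0 and 454. HLA-C stood closer, at 352 and 349, against 559, 548 and 443 CPM, and HLA-F, PSMB9 and TAPBP were also among the 6. The HLA genes are similar in sequence, so the split of reads among them is uncertain. B2M, the light chain of every class I molecule, did not overlap but came within 1.2 times, at 1644 and 1751, against 2545, 2309.6 and 1995 CPM. PSMB10, PDIA3 and CANX, general parts of the pathway, were not apart, with differences of -0.06, -0.08 and -0.08.

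Of the 69 lower genes, 50 are on the interferon-stimulated, signalling, sensor or class I lists and 19 are not. Named here after their values were seen, HES4, HSH2D, SHFL, TRIM69, PARP10 and RNF213 are among the 19. SHFL, an inhibitor of viral frameshifting, stood at 16.6 and 15.6 CPM in SBO09 and SBO10, against 34.0, 30.8 and 24.6, in the same order of cultures as IFI27. HES4, a transcriptional repressor next to ISG15 on chromosome 1, stood at 33.3 and 32.3, against 52.1, 59.9 and 55.7 CPM. For HES4 the 3 high cultures were close to each other and SBO07 was the lowest of them, unlike IFI27.

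Of 10 luminal secreted and mucin genes above the minimum, 5 were lower in SBO09 and SBO10 and 0 were higher, with a median difference of -0.52, beside 0.84% lower over all genes. The number was 3 without the cells in which another barcode was higher (SAA1, SAA2 and WFDC2), 3 without library 4 and 1 under the top barcode rule (WFDC2), so WFDC2 alone was called under all 3 assignments. WFDC2, a secreted protease inhibitor, stood at 273 and 317 CPM in SBO09 and SBO10, against 432, 437 and 489. LCN2, an iron-scavenging protein of innate defence, stood at 139 and 137, against 265, 177 and 196 CPM. SAA1 and SAA2, acute-phase apolipoproteins whose reads are hard to split, stood at 176 and 204, against 281, 294 and 259 CPM for SAA1, with a difference of -0.62 for SAA2. C15orf48 was the fifth, at -0.57. WFDC2, SAA1 and LCN2 did not share the full order of IFI27. WFDC2 was highest in SBO11, and SAA1 in SBO08. LCN2 was highest in SBO07, as IFI27 was, but stood higher in SBO11 than in SBO08. ANXA3, also on the list, was not apart, with a difference of 0.02.

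FN1 was lower in SBO09 and SBO10. It encodes fibronectin, a matrix protein and a TGF-β target, and stood at 745 and 778 CPM in SBO09 and SBO10, against 1436, 1716 and 1014. SBO08 was highest and SBO11 nearest to the low pair, with loads of 1052 and 974 CPM against 842 and 695 CPM in SBO10. Of 14 mesenchymal and matrix genes above the minimum, 1 was called, FN1, beside 0.84% lower over all genes. Their median difference was -0.24. Without SBO11, 5 were lower (CALD1, COL4A1, FN1, SPARC and TAGLN) and S100A4 was higher, among 141 lower and 18 higher of 8192 genes. COL7A1, which encodes the collagen of anchoring fibrils and is on none of the lists, was also among the 69 and is named after its values were seen. It stood at 9.84 and 11.02 CPM in SBO09 and SBO10, against 15.3, 16.8 and 14.8. LGALS1, TPM1 and TPM2, those with the most UMIs among the others, had differences of -0.14, -0.11 and 0.07.

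Of 17 other TGF-β targets above the minimum, a list that does not hold FN1, 0 were called, with a median difference of -0.28. With 0.84% of all genes called lower, nothing is read from a count of 0 in 17. Without SBO11, 5 were lower (ITGB6, PMEPA1, SKIL, TGFBI and THBS1), among 141 of 8192 genes. THBS1 was lower without the cells in which another barcode was higher, among 52 of 8196 genes. CCN2 was higher without SBO08, among 30 of 8202 genes. Chosen after their values were seen, 4 were lower without overlap, beside 3.42% of all genes: TGFBI, PMEPA1, TGFB1 and BHLHE40. PMEPA1, a feedback inhibitor of TGF-β signalling, stood at 54.4 and 63.1 CPM in SBO09 and SBO10, against 102, 144 and 65.8. SBO11 lay with the low pair and SBO08 stood highest, so PMEPA1 set SBO07 and SBO08 apart more than it set the 3 high cultures apart. THBS1, the target with the most UMIs, stood at 272 and 274, against 370.2, 414 and 317 CPM. Epithelial adhesion genes (0 of 24 called, median -0.05), basal keratins (0 of 17, -0.15) and EMT transcription factors (0 of 6, -0.02) had 0 called, and at most 3 in a direction under the 14 alternatives. With the same share over all genes, nothing is read from these counts of 0 either.

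Few genes were called higher in SBO09 and SBO10. The 3 called were MT1G, CTH and LINC00052, named after their values were seen, and none had a mean of 20 CPM. MT1G, a metal-binding metallothionein with close paralogs, stood at 22.7 and 22.7 CPM, against 13.2, 10.3 and 8.03. In SBO12, the sixth culture of the pool, MT1G stood higher still, at 58.9 CPM, with a UMI in 49.6% of cells. A high level of MT1G was therefore not particular to SBO09 and SBO10 in the pool. A single cell held 153 of its 373 UMIs in SBO10 and another held 80 of 553 in SBO09. The share of cells with an MT1G UMI was 21.4% in SBO09 and 17.8% in SBO10, against 18.3, 22.6 and 12.8% in SBO07, SBO08 and SBO11, and these shares did overlap between the sides. MT1G was not called with the top barcode assignment, with the stricter assignment quantile, with a mitochondrial limit of 10%, with 2000 genes as the minimum per cell or without library 3, where its nearest gap was 1.10 times in place of 1.67. Under the top barcode rule SBO10 held 13.8 CPM of MT1G and SBO08, with 2962 cells in place of 863, held 20.4 CPM. CTH, an enzyme that makes cysteine, stood at 12.7 and 13.8, against 8.76, 9.20 and 7.91 CPM.

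Calls among immediate early genes depended on the assignment and on SBO08. Of 16 above the minimum, 0 were called, beside 0.0365% of all genes called higher and 0.84% lower. Of the 16, 14 had differences above 0 and the median was 0.42. Under the top barcode rule 5 were called higher in SBO09 and SBO10 (ATF3, FOS, GADD45B, JUN and KLF4), among 16 of all 8170 genes. Without SBO08, 7 were called higher (ATF3, BTG2, EGR1, FOS, GADD45B, IER2 and JUN), among 30 of 8202. JUN stood at 378 and 295 CPM in SBO09 and SBO10, against 224, 360.4 and 161, with SBO08 between SBO10 and SBO09. The loads of 3 genes of the list (FOS, EGR1 and KLF4) did not overlap, higher in SBO09 and SBO10, beside 1.32% of all genes. FOS, chosen from these after its values were seen, came within 1.2 times, at 104 and 109.5, against 49.1, 92.9 and 56.7 CPM. SBO08 thus stood nearer to SBO09 and SBO10 than to SBO07 and SBO11 for both genes. Under the top barcode rule JUN was 409 and 326 CPM in SBO09 and SBO10, against 226, 268 and 158 CPM in SBO07, SBO08 and SBO11. FOS was then 111 and 119, against 47.2, 74.6 and 49.4 CPM. SBO08 lay between the sides there, apart from the low pair by more than 1.2 times. It then held 2962 cells in place of 863, and SBO12 held 98 in place of 1227. The SBO08 values of the 2 assignments thus come from different sets of cells.

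Hosts of small nucleolar RNAs and nuclear noncoding RNAs had a median difference of 0.27 with 0 of 19 called. Of these, 5 were called higher under the top barcode rule (GAS5, SNHG1, SNHG12, SNHG8 and ZFAS1), among 16 of 8170 genes. The same 5 with KCNQ1OT1 were called higher without SBO08, among 30 of 8202 genes. GAS5 stood at 183 and 203 CPM in SBO09 and SBO10, against 115, 179.8 and 110.4, and under the top barcode rule at 193 and 202, against 121, 136 and 115 CPM. The SBO08 value under that rule came from 2962 cells in place of 863. Ribosomal protein genes had a median of 0.06 and 0 of 31 called. G-quadruplex helicases and binding proteins had 0 of 26 called and a median of 0.01, and cell cycle genes had 0 of 24 (S phase, 0.06) and 0 of 27 (G2/M, 0.01) called. The lists for NF-κB targets (16 genes), heat shock (15), the unfolded protein response (19), cholesterol synthesis (21), hypoxia and glycolysis (16), NRF2 targets (14) and p53 targets (18) had 0 called. With 0.84% of all genes called lower and 0.0365% higher, nothing is read from these counts of 0. Under each of 14 alternatives, 0 genes were called for ribosomal proteins, G-quadruplex proteins, S phase, G2/M and NRF2 targets, and up to 3 in a direction for the other 6 of these lists.

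**Figure D3:**
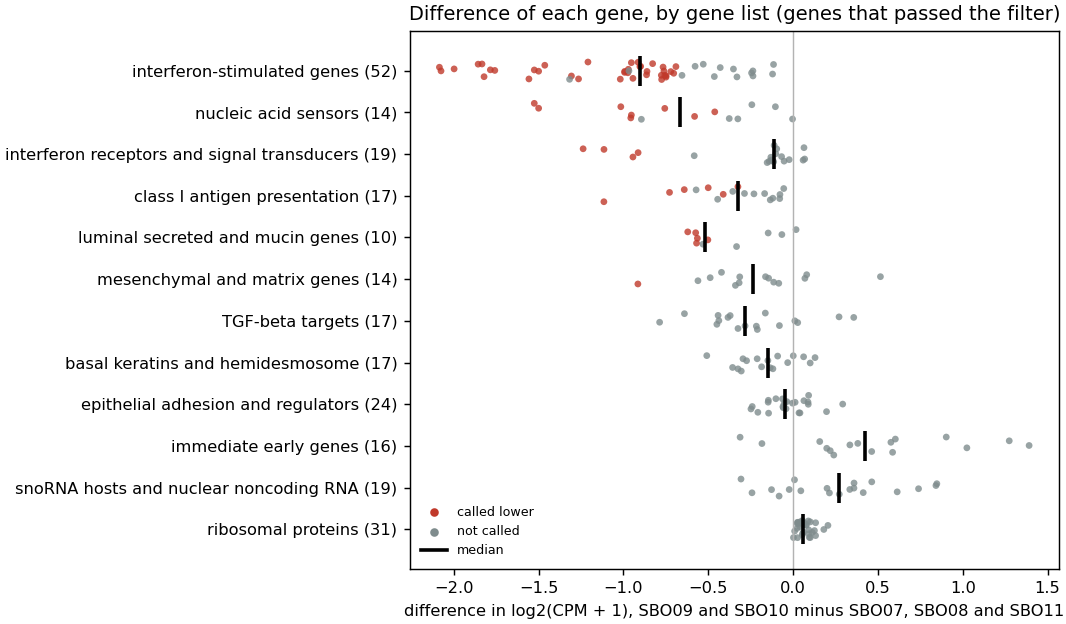
Difference in log2(CPM + 1) between the median of SBO09 and SBO10 and the median of SBO07, SBO08 and SBO11 (horizontal axis) for each gene above the minimum, by list (vertical axis, number of genes in brackets). Red points were called lower, grey points were not called, and black bars are medians, which run from -0.90 for interferon-stimulated genes to 0.42 for immediate early genes.

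Within cells, the difference was a shift of most cells together with a high tail that the low cultures also held. Each cell was thinned to 10000 UMIs, which left 663 cells of SBO09, 466 of SBO10, 784 of SBO07, 810 of SBO08 and 490 of SBO11, with 28, 17, 48, 53 and 35 shallower cells left out. The median cell then held 28 UMIs of the 58 interferon-stimulated genes in SBO09 and 29 in SBO10, against 76.5 in SBO07, 59 in SBO08 and 40 in SBO11. The 10th to 90th percentiles were 16 to 66 UMIs in SBO09, 17 to 77.5 in SBO10, 34 to 157.7 in SBO07, 27 to 133 in SBO08 and 22 to 101 in SBO11. The 90th percentile of SBO10 thus lay close to the median of SBO07, and that of SBO09 lay below it. By load, the 90th percentile of SBO10 was 80.9 and 67.3 in libraries 3 and 4, beside SBO07 medians of 77 and 75. The 95th percentiles of SBO09 and SBO10, 97 and 98 UMIs, lay above the SBO07 median. Without the cells in which another barcode was higher, the median cell of SBO11 held 37 UMIs, beside 28 in SBO09 and 29 in SBO10, and under the top barcode rule 35, beside 27 and 26. The medians differed little between loads: 28 and 28 in SBO09, 28.5 and 30 in SBO10, 77 and 75 in SBO07.

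**Figure D4:**
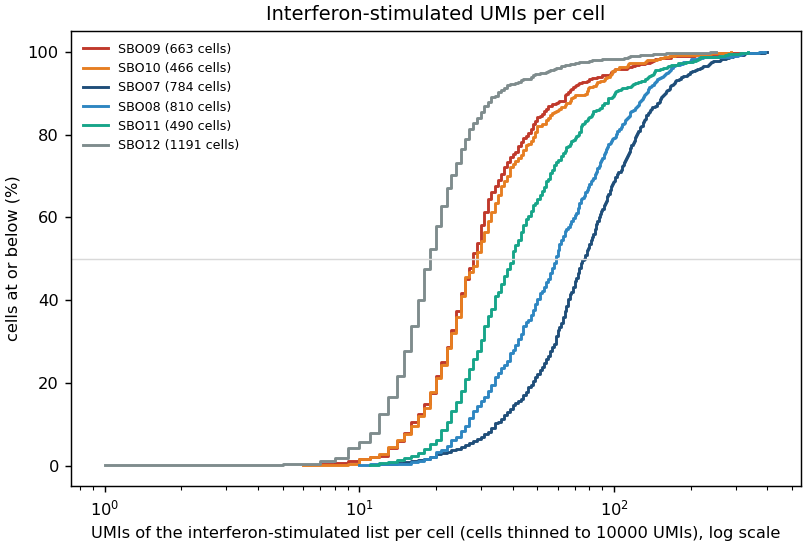
Cumulative share of cells (vertical axis, %) with at most a given number of UMIs of the interferon-stimulated list (horizontal axis, log scale), each cell thinned to 10000 UMIs. The curves of SBO09 and SBO10 lie on each other with medians of 28 and 29 UMIs, to the left of SBO11 at 40, SBO08 at 59 and SBO07 at 76.5.

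The share of thinned cells with an IFI27 UMI was 19.2% in SBO09 (exact 95% binomial interval 16.2 to 22.4) and 25.5% in SBO10 (21.6 to 29.8). It was 80.9% in SBO07 (77.9 to 83.6), 66.4% in SBO08 and 40.4% in SBO11 (36.0 to 44.9). Before thinning the shares were 29.8 and 41.4%, against 88.0, 79.7 and 53.5%, in the same order. The share in SBO12, the sixth culture in the same droplet loads, was 7.14%, and RNA free in the droplets could add to each of these shares. For IFI6 the thinned shares were 38.9 and 48.7%, against 94.0, 88.0 and 66.7%. For BST2 they were 9.65 and 9.01%, against 34.1, 25.4 and 18.2%. For all 3 genes SBO09 and SBO10 held fewer cells with a UMI than SBO11. Without the cells in which another barcode was higher, the IFI27 share was 33.9% in SBO11 (28.96 to 39.1), beside 18.5% in SBO09 and 23.5% in SBO10 (19.7 to 27.8). The IFI6 share was then 65.5% in SBO11 beside 38.3 and 47.3%, and the BST2 share 14.8% beside 9.57 and 7.62%. Under the top barcode rule the SBO11 shares were 31.9, 62.8 and 11.4% for IFI27, IFI6 and BST2. The BST2 interval of SBO11 (8.03 to 15.6) then overlapped that of SBO09 (6.35 to 10.9). These binomial intervals cover the sampling of cells within a culture only, and spread between cultures was not measured.

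The intermediate place of SBO11 depended in part on its cells with more SBO08 UMIs. In the 156 cells of SBO11 with another barcode higher, IFI27 was 321 CPM, close to 367 CPM in SBO08, and in the other 369 cells it was 125 CPM. BST2 was 63.7 against 23.5 CPM and IFI6 was 471 against 276 CPM in those 2 sets of SBO11 cells. In SBO10 the 20 such cells held 299 CPM of IFI27 and the other 463 held 89.2 CPM, and in SBO09 the 37 such cells held 156 CPM and the other 654 held 72.6 CPM. With these cells left out of every culture, SBO11 stayed above SBO10 for IFI27, with 1.39 times between them in place of 1.82, and the gap was 1.45 times for BST2 and 1.59 for IFI6. The lower genes then numbered 52, of which 49 were among the 69, the higher genes numbered 4, and 31 of the 52 interferon-stimulated genes were lower. Whether these cells are doublets, free barcode or true SBO11 cells was not tested.

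**Figure D5:**
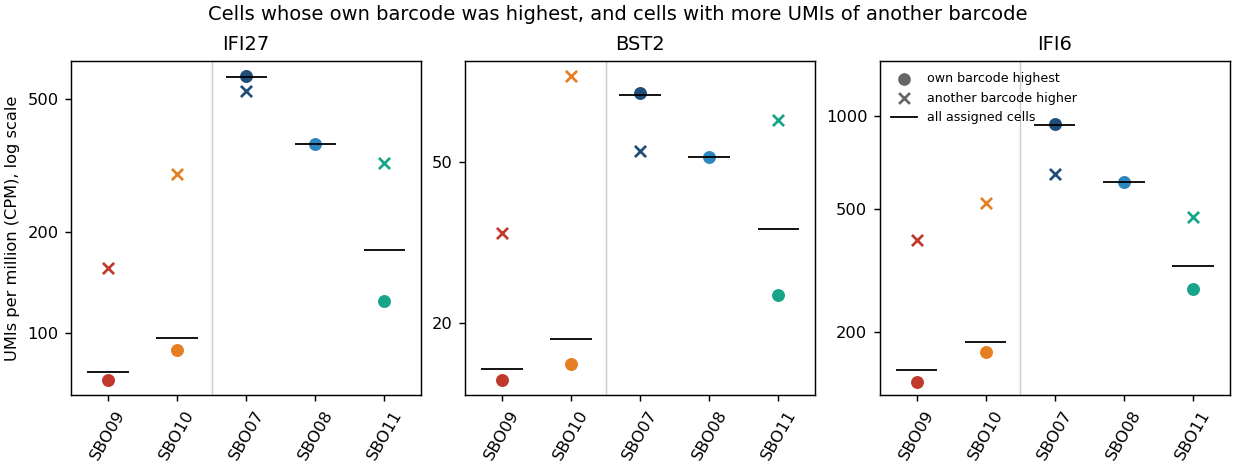
CPM on a log scale (vertical axis) of IFI27, BST2 and IFI6 by culture (horizontal axis) in cells whose own barcode was highest (circles), in cells with more UMIs of another barcode (crosses) and in all assigned cells (black lines). In SBO11 the crosses and circles stand at 321 and 125 CPM for IFI27, and SBO08 has no such cells.

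The genes whose levels followed IFI27 most closely were sought over the 10 values of 5 cultures in 2 loads, as Pearson r of log2(CPM + 1). The 10 nearest were IFITM3 (r = 0.996), SP100, MX1, IFI6, IFITM1, OAS1, HERC6, IFI44L, BST2 and UBE2L6 (r = 0.986), all on the interferon-stimulated list. The 10 values share cells and culture, so r describes the ranking of these cultures only.

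SBO12 is the sixth culture of the pool and lies outside the division, with 1227 cells. Its levels were below those of SBO09 and SBO10 for IFI27 (20.3 CPM), BST2 (3.29 CPM) and IFI6 (54.0 CPM). All 52 interferon-stimulated genes were compared, and in 52 of them SBO12 was the lowest of the 6 cultures. Their summed level in SBO12 was 2356 CPM and the median thinned cell held 19 UMIs of the list. Its 1227 cells include the 774 with more UMIs of another barcode, and its median cell held 36 UMIs of its own barcode. In the other 453 cells IFI27 was 12.1 CPM and the summed level 2069 CPM, and SBO12 was the lowest of 6 in 51 of the 52 genes. It was also lowest in 51 of the 52 under the top barcode rule, which left it 98 cells. SBO09 and SBO10 were therefore the lowest of the 5 cultures compared but not of the pool.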

How the data were processed

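Single-cell 5′ libraries of HMLE cells were read on 2 loads (libraries 3 and 4) of 1 pool of 6 barcoded cultures. The authors deposited UMI counts as 1 matrix per library, with 36601 genes and 12 barcodes. The build was hg38, and Cell Ranger 6.0.2, bcl2fastq 2.20.0.422 and Seurat 4.1.0 are named, per the submitters' processing notes; the gene annotation is not given in the sources used here. Gene positions come from GENCODE release 29. The strand setting of the counting is not given in the sources used here, so overlapping genes may share reads. Libraries 3 and 4 held 159286681 and 155668087 gene UMIs.

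Cells of 1000 or more genes and up to 15% mitochondrial UMIs were kept, 9429 in both libraries. Barcode counts were normalised by centred log ratio and cells assigned by HTODemux of Seurat 5.3.0 (positive quantile 0.99), which left out 2000 cells with several barcodes and 2808 with none as the treatment of doublets. UMIs were summed per culture and library and scaled to CPM. The call, the minimum of 10 CPM and the gap of 1.2 times are given with the results, and the pseudocount was 1. The call was checked on simulated counts. No test was run, because the division was chosen on these values and no culture has a replicate. The members and gene lists were chosen with earlier results of these data known. Named genes were IFI27, BST2 and IFI6, the 20 widest gaps per direction at a mean of at least 20 CPM, up to 6 called and 3 uncalled genes per list, all genes of the interferon lists, and the 10 genes most like IFI27. Alternatives covered the assignment, filters, scaling (TMM of edgeR 4.0.16), thinning, pseudocount, gap, libraries and cultures. Promoters came from RefSeq (GRCh38.p14), matched by symbol for 55 of 69 lower genes. Libraries 1 and 2 were not used in the comparison. Python 3.11.15, numpy 2.4.6, scipy 1.17.1 and pandas 2.3.3 were used. Values of some named genes are not reported here.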

Additional observations from a re-analysis of the deposited data

How the results depend on the processing

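IFI27 and IFI6 were lower in SBO09 and SBO10 under every alternative run, with no overlap of the sides, and so was BST2 except under the top barcode rule (top barcode with at least 10 UMIs and at least 3 times the second), where its loads overlapped. Of the lower genes, 43 of 47 under the top barcode rule and 64 of 64 under TMM were among the 69. The higher genes numbered 16 under the top barcode rule, 5 under TMM, 7 with cells thinned to 10000 UMIs, 0 at a mean of at least 20 CPM, 6 with no filter on low values, 1 at a gap of 1.5 times and 108 with no minimum gap. The lower genes numbered 114 with no filter, 20 at a gap of 1.5 times and 281 with no minimum gap. MT1G was not called higher under the top barcode rule, at the stricter positive quantile, at a mitochondrial share of at most 10%, at 2000 genes per cell or without library 3; the cause was not tested.

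The BST2 difference was -1.56 as reported, and -1.85 under the top barcode rule, -1.70 without cells with another barcode higher, -1.61 at the stricter positive quantile, -1.55 at a mitochondrial share of at most 10%, -1.58 at 2000 genes, -1.55 under TMM, -1.52 thinned and -1.58 at a pseudocount of 0.5. The IFI6 difference was -1.97 without cells with another barcode higher. The median of the interferon-stimulated list was -0.76 under the top barcode rule, -0.92 without cells with another barcode higher, -0.87 at the stricter quantile, -0.88 at the 10% share, -0.90 at 2000 genes and under TMM, and -0.91 at a pseudocount of 0.5.

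With 1 library or 1 culture left out in turn, the lower genes ranged from 70 to 206 and the higher genes from 2 to 30. With a culture left out, fewer loads have to lie apart, so higher counts are not read as a result. In the same settings the IFI27 difference ranged from -2.41 to -1.55 and the BST2 difference from -1.81 to -1.27. The IFI6 difference ranged from -2.16 to -1.41 and the list median from -1.02 to -0.69. No paired analysis was possible because the result comes from no test. All 5 cultures were in both loads, and the IFI27 difference within them was -2.04 in library 3 and -2.18 in library 4. With summed counts from 2 loads of 1 pool, spread between cultures of 1 condition was not measured.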
